A study of Mus musculus with 18 samples.

Results

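Cutaneous squamous cell carcinomas (cuSCC) of hairless mice were compared with chronically irradiated skin of the same animals. The comparison used 12 of the 18 RNA sequencing libraries of the series, 6 from squamous carcinoma (SCC) and 6 from nonlesional irradiated skin (CHR), and SCC and CHR libraries were matched by the number of the mouse (2, 3, 7, 8, 9 and 10). All 14521 rows with a gene symbol among the 14542 rows of the table were tested. The mice were female SKH-1E Hairless littermates that received chronic low-dose ultraviolet radiation (UVR) from solar simulators, so control and tumour tissue had the same genotype and the same exposure, and no unirradiated skin enters the comparison. SKH-1E is an outbred, immunocompetent stock with a defect of the Hr gene and hence abnormal hair follicles. The remaining 6 libraries are papillomas (PAP), exophytic precancerous lesions of the same 6 mice, and were used only to test where SCC also differed from PAP. The comparison addresses which transcripts distinguish the invasive tumour from the UV-damaged skin of the same animal. Total RNA was extracted from tissue pieces, so SCC and CHR both hold stroma and other cells beside keratinocytes.

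The epidermis is a stratified epithelium in which basal keratinocytes, attached to the basement membrane by laminins and integrins, divide and then move upwards. In the suprabasal layers they change their keratins, fill with filaggrin-family proteins and build a cornified envelope of loricrin, small proline-rich proteins (SPRR) and late cornified envelope (LCE) proteins, sealed by lipids. In wounded or hyperproliferative epidermis another set of keratins and many SPRR genes are switched on, and growth is driven by ligands of the EGF receptor family through ERK signalling. Cutaneous squamous carcinoma is a keratinocyte tumour that keeps parts of this programme while it invades the dermis.

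Sequencing depth was similar in the SCC and CHR libraries, with 15420000 to 20010000 reads assigned to genes in SCC and 15540000 to 20540000 in CHR. Gene identifiers and coordinates are those of GENCODE M21 on GRCm38 (mm10). Levels are given as normalised reads, which are the reads recovered from the deposited values divided by the size factor of the library, and they compare samples for 1 gene, not genes with each other. Differences are the mean within-mouse difference SCC minus CHR of log2(deposited value), given ± its standard error (SE), and adjusted p-values come from the paired limma fit over all 14521 genes with a threshold of 0.05. The deposited scale is compressed at low read numbers, so the log2 difference of a gene with few reads understates its change in reads. Genes named here were taken by a rule from each gene list and from the whole table, and those described in addition to that rule were chosen after their values were seen. Reads of near-identical family members (the Sprr2, Lce1, Krt6 and mast cell protease genes) may have been divided among copies by the counting, so values of single members are uncertain.

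Marker genes were first used to check the tissue labels. All 12 keratinocyte markers were detected in every SCC and CHR library, and their summed level was 259500 to 902500 normalised reads in SCC and 474600 to 911500 in CHR. Markers of muscle, fat and sebaceous glands were much higher in CHR than in SCC. The summed level of 18 skeletal muscle markers was 410500 to 617900 in CHR and 460.4 to 203700 in SCC, 15 adipocyte markers summed to 33440 to 59780 in CHR and 4172 to 26220 in SCC, and 13 sebaceous gland markers summed to 41690 to 92740 in CHR and 7812 to 15850 in SCC. None of these 3 ranges overlapped between the tissues. With a background of 22.7% of all genes lower in SCC and 15.0% higher, 17 of 18 muscle markers, 14 of 15 adipocyte markers and 11 of 13 sebaceous markers were called lower, and 1 sebaceous marker was called higher (Fabp5). Nerve and pigment cell markers were lower too, with 9 of 11 measured Schwann cell and nerve markers and 5 of 5 measured melanocyte markers called lower. The melanocyte count dropped to 1 when mouse 7 was left out, to 2 when mouse 9 was and to 3 when mouse 10 was. Of 17 hair follicle markers 4 were lower (2 without mouse 7, 9 or 10, and 1 was higher without mouse 8), a share of 23.5% that lay near the background, and their summed level had a median of 3955 normalised reads in CHR and 3832 in SCC. Of 12 fibroblast markers 3 were lower (1 without mouse 9), and of 4 measured B and plasma cell markers 3 were lower (2 without mouse 2, 3, 7, 8 or 9). Of 4 measured red blood cell markers, limma called 0, with 0 at an unadjusted p under 0.05 and 0 by voom. Among 12 keratinocyte markers 5 were higher (3 without mouse 9) and 2 lower, and among 10 smooth muscle and pericyte markers 1 was higher (4 without mouse 10) and 1 lower (2 without mouse 2 or mouse 10). In bulk tissue, fewer cells of a type and less RNA per cell cannot be told apart, and the part of this difference in composition in the results below was not tested.

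The SCC library of mouse 10 stood apart. It held almost no muscle RNA (460.4 normalised reads over the 18 markers, against 76510 to 203700 in the other 5 carcinomas), and Ttn, the giant sarcomere protein titin, was at 166.6 there against 52890 to 154900 in the others. Fibroblast markers were also at their lowest, with the proteoglycan gene Dcn at 81.51 normalised reads against 2601 to 8939. Red blood cell markers were highest in both tissues of this mouse, at 35490 in SCC and 15990 in CHR, against 1759 to 4055 and 2187 to 4356 in the other mice. Counts of list members below are also given without mouse 10, or without any other mouse, where they then changed by more than 1.5 times. The summed markers of 18 cell types are shown by library.

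**Figure D1:**
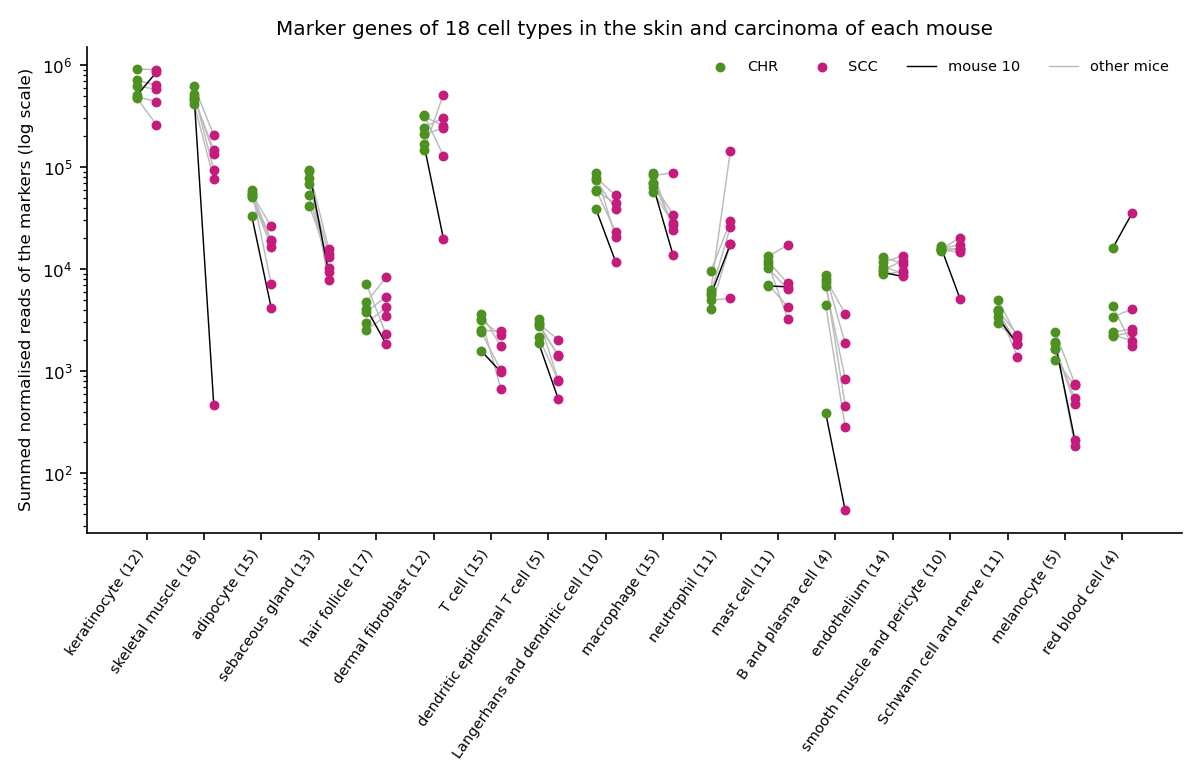
Summed normalised reads (log axis) of the marker genes of 18 cell types in the 6 CHR and 6 SCC libraries; lines join the tissues of 1 mouse and black marks mouse 10. Skeletal muscle, adipocyte and sebaceous gland markers lie lower in every SCC, and the SCC of mouse 10 has 460.4 reads over the muscle markers.

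Between SCC and CHR, 5479 of 14521 genes (37.7%) passed the test, 2182 higher in SCC (15.0%) and 3297 lower (22.7%). Of these, 4755 (86.8%) moved the same way in 6 of 6 mice. Without mouse 10, 4783 genes were called, 1796 higher and 2987 lower. Measured in normalised reads with 10 added, 612 genes rose and 1957 fell by more than 2-fold. The balance of directions depended on how libraries were scaled. Of the genes called, 39.8% were higher as the values were deposited, 51% (2968 of 5821) when every library was shifted to a common median and 56.3% (3469 of 6164) after quantile normalisation, with the median difference of all genes at -0.02, 0.06 and 0.1 on the log2 scale. None of the 420 called members of the gene lists changed sign under any alternative. For 2883 genes (19.9%) all 6 SCC libraries lay on the same side of all 6 CHR libraries. Carcinomas varied more among themselves than irradiated skin did, with a larger standard deviation (SD) of the log2 value for 86.4% of genes and a median SD of 0.314 in SCC against 0.167 in CHR.

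**Figure D2:**
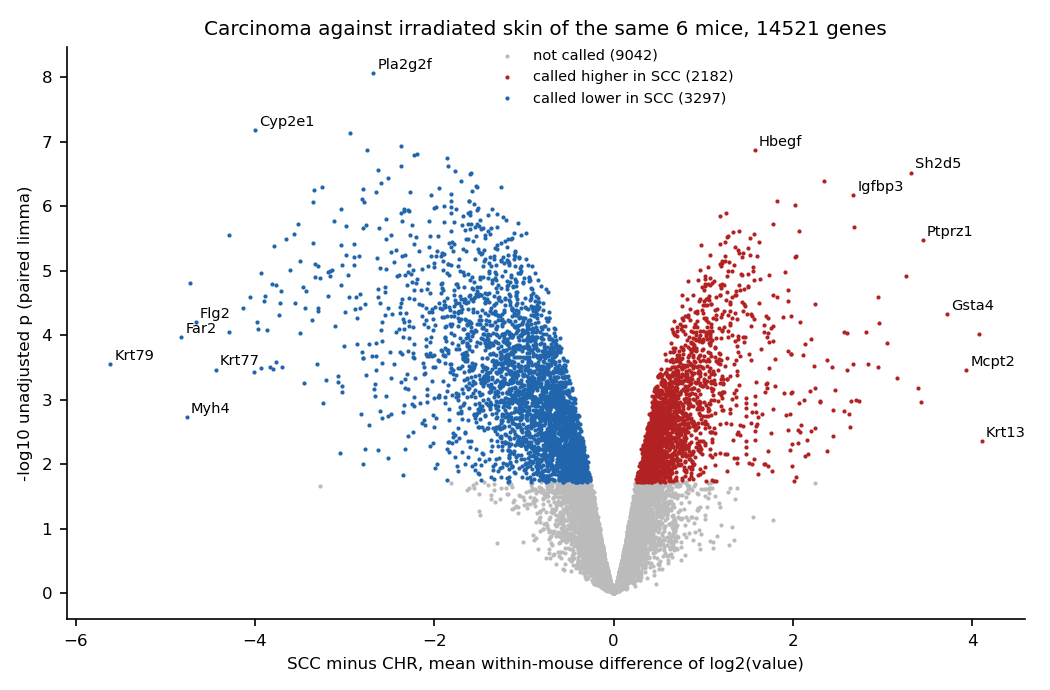
Mean within-mouse log2 difference SCC minus CHR (x axis) against the -log10 of the unadjusted p of the paired limma fit (y axis) for 14521 genes, with genes called higher and lower at an adjusted p of 0.05 in colour. Called genes extend to -5.62 on the left (Krt79) and to 4.10 on the right (Krt13).

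**Figure D3:**
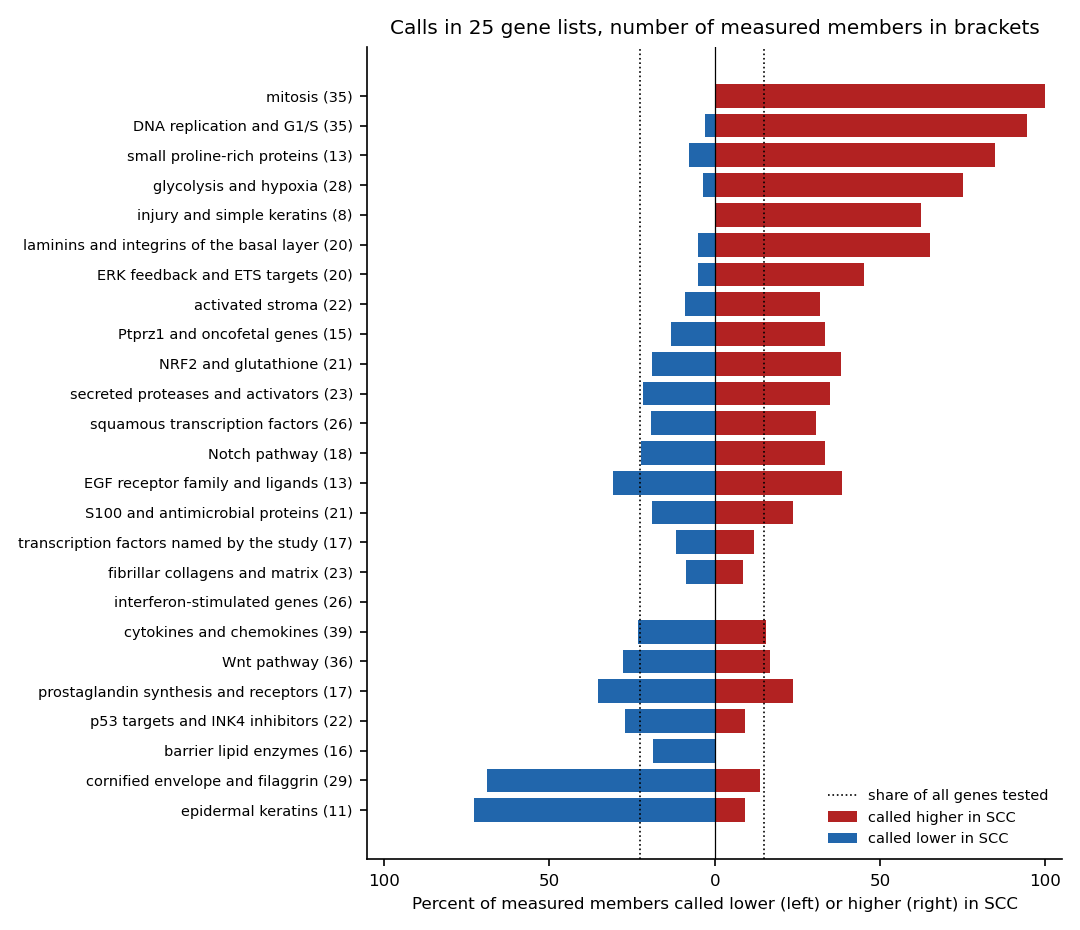
Share of measured members called higher and lower in SCC (bars, percent) for each gene list, with dotted lines at the shares over all genes, 15.0% and 22.7%. Mitosis (35 of 35) and DNA replication (33 of 35) have the largest shares called higher. Epidermal keratins (8 of 11) and the cornified envelope list (20 of 29) have the largest shares called lower.

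Genes of the cell division cycle rose together in SCC. All 35 genes of the mitosis list were called higher, with a median log2 difference of 1.20. In the list of DNA replication and G1/S, 33 of 35 genes were called higher, with a median of 0.91. Over all genes 15.0% were called higher and the median was -0.02. E2f2, an activating E2F family member, was the 1 member of the replication list called lower, at a log2 difference of -0.74, and E2f1 was not called. The levels of 34 mitosis genes and 24 replication genes did not overlap between the tissues, against 19.9% of all genes. Bub1, a kinase of the spindle checkpoint (ENSMUSG00000027379.13, chr2:127801122-127831865), was at 195.2 to 290.3 normalised reads in CHR (median 234.6) and 564.2 to 1289 in SCC (median 821.5). Every carcinoma lay above every CHR library, and the log2 difference was 1.56 ± 0.17 (adjusted p = 0.000655). Mki67, the gene of the proliferation antigen Ki-67, was at a median of 4644 normalised reads in CHR (3929 to 6191) and 9187 in SCC (7760 to 10740). This was a 1.92-fold ratio of means without overlap and a log2 difference of 0.93 ± 0.12 (adjusted p = 0.00129). E2f7, a repressor of the E2F family and itself an E2F target (ENSMUSG00000020185.16, chr10:110745439-110787384), was at a median of 109.3 normalised reads in CHR (88.95 to 185.3) and 665.8 in SCC (310.7 to 812.6), with a log2 difference of 1.82 ± 0.13 (adjusted p = 0.000309). Mcm5, a subunit of the replicative helicase, was at 874.8 to 1166 normalised reads in CHR (median 993.5) and 1631 to 4265 in SCC (median 2404) and did not overlap (log2 difference 1.35 ± 0.19, adjusted p = 0.00189). Rrm1, the large subunit of ribonucleotide reductase, was at a median of 1771 normalised reads in CHR (1578 to 1965) and 3233 in SCC (2904 to 5154). The SCC of mouse 9 was its highest library and the other 5 carcinomas lay between 2904 and 3301, with a log2 difference of 0.92 ± 0.14 (adjusted p = 0.00216). Ccnd1, the G1 cyclin, had 2.75 times the CHR mean in SCC (log2 difference 1.40 ± 0.12, adjusted p = 0.000359). Without mouse 10, 34 mitosis genes and 30 replication genes were called higher.

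Promoter sequences of 3 of these genes are shown because cell cycle promoters are known to hold E2F sites or CCAAT boxes. The windows are the 250 bases before the RefSeq start on GRCm38.p6, 5′ to 3′ on the strand of the gene, with E2F words in capitals in E2f7 and Mcm5 and CCAAT words in capitals in Mki67. The E2F words searched on both strands were TTTCCCGC, TTTCGCGC, TTTGCCGC and TTTGGCGC, and the other word was CCAAT. E2f7 and Mcm5 also hold CCAAT words on one strand or the other, left in lower case here, and Mki67 holds no E2F word. E2f7 (chr10:110745189-110745438, plus strand) holds 1 E2F word, at position -198 from the start, Mcm5 (chr8:75109259-75109508, plus strand) holds 2 overlapping E2F words on opposite strands at -153 and -149, and Mki67 (chr7:135716380-135716629, minus strand) holds 3 CCAAT words at -188, -166 and -141.
E2f7: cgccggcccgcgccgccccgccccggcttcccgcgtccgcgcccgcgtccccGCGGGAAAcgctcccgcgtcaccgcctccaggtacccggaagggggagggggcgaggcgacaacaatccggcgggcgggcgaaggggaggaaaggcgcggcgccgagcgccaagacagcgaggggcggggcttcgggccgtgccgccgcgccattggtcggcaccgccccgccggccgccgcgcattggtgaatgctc
Mcm5: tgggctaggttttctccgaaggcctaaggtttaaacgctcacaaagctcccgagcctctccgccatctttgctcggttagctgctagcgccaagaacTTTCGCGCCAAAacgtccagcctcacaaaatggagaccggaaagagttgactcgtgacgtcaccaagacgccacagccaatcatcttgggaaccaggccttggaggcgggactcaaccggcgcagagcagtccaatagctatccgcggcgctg
Mki67: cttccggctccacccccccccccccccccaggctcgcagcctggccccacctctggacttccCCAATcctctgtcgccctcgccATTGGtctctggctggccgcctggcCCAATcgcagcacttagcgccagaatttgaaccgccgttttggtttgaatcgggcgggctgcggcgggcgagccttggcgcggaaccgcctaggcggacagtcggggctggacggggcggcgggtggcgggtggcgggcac
An E2F word was found in 9 of the 29 replication genes with a window (31.0%) and in 2 of 28 mitosis genes (7.1%). It was in 3.6% of the 11226 tested genes with a window and in 2.2% of all 27025 genes with a window. A CCAAT word was in 22 of 28 mitosis genes (78.6%) and 17 of 29 replication genes (58.6%). It was in 39.6% of tested genes and 37.5% of all genes with a window. The cell cycle homology words TTTGAA and TTCGAA were in 14 of 28 mitosis genes (50%). They were in 14.9% of tested genes and 19.6% of all genes with a window. These matches describe the letters of the windows and not binding.

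Keratins of the normal suprabasal layers fell, while several keratins of injured or internal epithelia rose. Of 11 measured epidermal keratins, 8 were called lower and 1 higher, against 22.7% and 15.0% of all genes. Their median log2 difference was -1.50. Of 8 measured injury and simple keratins, 5 were called higher and 0 lower by limma, with a median of 1.17; at an unadjusted p under 0.05 there were 6, and limma-voom also called 5 higher and 0 lower. Without mouse 7, 8 or 9 in turn, 3 members were called higher. Krt77, a suprabasal and sweat duct keratin (ENSMUSG00000067594.6, chr15:101858731-101869705), was at 381.0 to 22320 normalised reads in CHR (median 1220) and 3.711 to 42.96 in SCC (median 18.49). The CHR of mouse 10 was its highest library and the other 5 CHR libraries lay between 381.0 and 1841, all above every SCC, with a log2 difference of -4.44 ± 0.74 (adjusted p = 0.00338). Krt79, a keratin of the infundibulum and sebaceous duct (ENSMUSG00000061397.8, chr15:101929332-101940324), was at a median of 34020 normalised reads in CHR (15230 to 76080) and 1180 in SCC (22.26 to 5495) and also did not overlap (log2 difference -5.62 ± 0.91, adjusted p = 0.00305). Krt1 and Krt10, the keratin pair of the spinous layer, overlapped between tissues although each was lower in SCC in 6 of 6 mice. Krt1 was at 95440 to 282100 normalised reads in CHR (median 112700) and 1777 to 129800 in SCC (median 15230), and its log2 difference was -3.03 ± 0.55 (adjusted p = 0.00478). Krt10 was at a median of 76500 normalised reads in CHR (68840 to 174800) and 9258 in SCC (4329 to 171600), with a log2 difference of -2.66 ± 0.51 (adjusted p = 0.00591). In both, 1 carcinoma or more still reached levels of irradiated skin.

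Krt13, the keratin of non-cornified mucosal epithelium (ENSMUSG00000044041.4, chr11:100117327-100121566), had the largest rise of all genes named by the rule. It was at 0 to 27.37 normalised reads in CHR (median 8.086) and 6.27 to 36500 in SCC (median 1147), higher in SCC in 6 of 6 mice but with overlapping groups and a wide spread among the carcinomas. The log2 difference was 4.10 ± 1.04 (adjusted p = 0.0175), and without mouse 9 the adjusted p was 0.0575. Krt6a, the hyperproliferation keratin, was at a median of 41750 normalised reads in CHR (23190 to 55770) and 131400 in SCC (45130 to 158000). Its lowest carcinoma was that of mouse 7, the other 5 lay between 101300 and 158000, and the log2 difference was 1.54 ± 0.33 (adjusted p = 0.00862). Krt6b had a log2 difference of 2.01 ± 0.68 (adjusted p = 0.0487), and its adjusted p lay above the threshold when mouse 2 (0.0914), 7 (0.0505), 8 (0.0675) or 9 (0.128) was left out. Krt16 and Krt17, which are usually induced with Krt6a, were not called, with log2 differences of 1.35 ± 0.53 (adjusted p = 0.0782) and 0.36 ± 0.28 (adjusted p = 0.325). Krt14, the basal keratin, was at 68480 to 120800 normalised reads in CHR (median 98020) and 67640 to 292700 in SCC (median 188000), higher in 5 of 6 mice, with a log2 difference of 0.80 ± 0.25 (adjusted p = 0.0375). Its adjusted p was above 0.05 without any of mice 2, 3, 8, 9 and 10, at 0.0538 to 0.0949. Its partner Krt5 had a log2 difference of 0.73 ± 0.28 (adjusted p = 0.0695).

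Genes of the cornified envelope divided into a large set that fell and the SPRR family, which rose. Of 13 measured SPRR genes, 11 were called higher and 1 lower, against 15.0% and 22.7% of all genes. Their median log2 difference was 2.11. Of 29 measured genes of the cornified envelope and filaggrin group, 20 were called lower and 4 higher, with a median of -1.57, and both counts were the same without mouse 10. Sprr2f (ENSMUSG00000050635.1, chr3:92365187-92366442) was at 7.679 to 92.64 normalised reads in CHR (median 24.77) and 104.9 to 3049 in SCC (median 1108). All carcinomas lay above all CHR libraries, and the log2 difference was 3.16 ± 0.55 (adjusted p = 0.00399). Sprr2i was at a median of 33.27 normalised reads in CHR (15.1 to 73.9) and 558.9 in SCC (311.9 to 1615), also without overlap (log2 difference 2.95 ± 0.34, adjusted p = 0.000863). Sprr1b had a log2 difference of 1.92 ± 0.41 (adjusted p = 0.0093). Sprr4 was the exception in the family. It was at 472.6 to 2990 normalised reads in CHR (median 1102) and 3.711 to 219.9 in SCC (median 65.59), below every CHR library in all 6 carcinomas, with a log2 difference of -3.30 ± 0.40 (adjusted p = 0.00103).

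The upstream sequences of Sprr2f, Sprr2i and Sprr4 are shown because the first pair rose and the last fell, and because AP-1 sites are known to drive SPRR genes. The windows are again 250 bases before the RefSeq start on GRCm38.p6, and the AP-1 word searched was TGACTCA with its reverse complement TGAGTCA, in capitals. Sprr2f (chr3:92364937-92365186, plus strand) has it at position -197 and Sprr2i (chr3:92407741-92407990, plus strand) at -193, and in Sprr4 (chr3:92500494-92500743, minus strand) these letters do not occur.
Sprr2f: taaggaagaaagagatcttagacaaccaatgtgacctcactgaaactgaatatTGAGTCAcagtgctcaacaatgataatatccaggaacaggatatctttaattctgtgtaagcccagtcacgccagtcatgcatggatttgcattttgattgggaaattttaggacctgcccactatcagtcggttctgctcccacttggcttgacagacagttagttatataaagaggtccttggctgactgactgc
Sprr2i: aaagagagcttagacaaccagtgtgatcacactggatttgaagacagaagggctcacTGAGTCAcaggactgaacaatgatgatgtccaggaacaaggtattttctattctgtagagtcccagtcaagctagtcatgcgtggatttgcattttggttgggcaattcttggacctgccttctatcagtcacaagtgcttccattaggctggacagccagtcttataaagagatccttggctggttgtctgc
Sprr4: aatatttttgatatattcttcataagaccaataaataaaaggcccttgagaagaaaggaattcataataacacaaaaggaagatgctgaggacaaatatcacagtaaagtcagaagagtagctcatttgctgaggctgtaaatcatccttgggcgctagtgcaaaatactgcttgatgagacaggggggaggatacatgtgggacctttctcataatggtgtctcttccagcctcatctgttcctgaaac
The word was found in 8 of 12 SPRR genes with a window (66.7%). It was in 4.7% of the 11226 tested genes with a window and in 5.2% of all 27025 genes with a window. Presence of the word did not follow the direction of change in every member, since Sprr1b and Sprr3, both called higher (log2 differences 1.92 and 1.69), also lacked it. Sprr2 genes are near-identical copies, so these windows are not independent of each other.

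Flg2 (ENSMUSG00000049133.7, chr3:93197278-93221391), a filaggrin-like protein of the granular layer, was at 5143 to 24670 normalised reads in CHR (median 14250) and 12.06 to 1650 in SCC (median 625.2). Its groups did not overlap, and the log2 difference was -4.66 ± 0.61 (adjusted p = 0.00131). Hrnr, the related hornerin, was at a median of 24420 normalised reads in CHR (9543 to 47530) and 3000 in SCC (1220 to 8379) with a log2 difference of -2.83 ± 0.32 (adjusted p = 0.000833). Lor, which encodes the main envelope protein loricrin, fell in 6 of 6 mice with overlapping groups (log2 difference -2.65 ± 0.44, adjusted p = 0.00341). All 9 measured Lce1 genes were called lower, at log2 differences of -3.52 to -1.14. Members that rose were Crnn, the cornulin of mucosal epithelium (log2 difference 1.61 ± 0.35, adjusted p = 0.00974), Tgm3, a transglutaminase, and Lce3c and Lce3f, LCE genes induced in injured skin. Lce3c had a log2 difference of 2.38 ± 0.65 (adjusted p = 0.0224), and its adjusted p was 0.05, 0.0595 and 0.0571 when mouse 3, 7 or 9 in turn was left out. Ivl, which encodes involucrin, and Tgm1, the transglutaminase of the envelope, were not called, at -0.28 ± 0.29 (adjusted p = 0.472) and 0.35 ± 0.16 (adjusted p = 0.126).

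Barrier and sebaceous lipid genes differed from each other. Of 16 barrier lipid enzymes, 3 were called lower (18.8%, against 22.7% of all genes) and 0 higher (against 15.0%) by limma. Their median log2 difference was 0.01, and 5 were lower without mouse 10. Elovl4, the elongase of the very long chain fatty acids of ceramides, was the member that fell most. It was at 16000 to 40270 normalised reads in CHR (median 25910) and 4494 to 10690 in SCC (median 7327), without overlap, and the log2 difference was -1.81 ± 0.16 (adjusted p = 0.00043). The secreted phospholipase Pla2g2f, which acts in the suprabasal epidermis (ENSMUSG00000028749.7, chr4:138750533-138757626), had the smallest p of all genes. It was at a median of 6209 normalised reads in CHR (4457 to 10210) and 878.7 in SCC (583.0 to 1774), and the log2 difference was -2.68 ± 0.11 (adjusted p = 0.000124). Sebaceous genes fell as well. Far2, a fatty acyl reductase of wax synthesis, was at 2350 to 10380 normalised reads in CHR (median 5886) and 3.711 to 640.1 in SCC (median 233.4), Scd1, the stearoyl desaturase, at a median of 48980 normalised reads in CHR (25800 to 58660) and 3815 in SCC (895.7 to 7057), and Awat1, a wax synthase, at a median of 2297 normalised reads in CHR (1210 to 4476) and 121.0 in SCC (0.9276 to 258.6). None of the 3 overlapped between tissues, and the log2 differences were -4.83 ± 0.68 (adjusted p = 0.00174) for Far2, -3.71 ± 0.41 (adjusted p = 0.000777) for Scd1 and -4.14 ± 0.50 (adjusted p = 0.00103) for Awat1. Elovl3 (log2 difference -4.29 ± 0.59, adjusted p = 0.00157) and Fa2h (log2 difference -3.89 ± 0.44, adjusted p = 0.000849), further enzymes of sebaceous lipid synthesis, were among the 12 genes with the largest falls. Fabp5, a fatty acid binding protein that keratinocytes also make, was called higher, but its adjusted p lay above the threshold when mouse 2 (0.0996), 7 (0.0846), 8 (0.0599) or 9 (0.0775) was left out. Far2, Scd1, Awat1 and Elovl3 are themselves members of the sebaceous marker list given above, and the part of fewer glands in the tumour samples was not tested.

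Genes that anchor basal keratinocytes rose. Of 20 laminins, integrins and hemidesmosome genes, 13 were called higher (65.0%) and 1 lower (5.0%), against 15.0% and 22.7% of all genes. Their median log2 difference was 0.93. Itga3, the integrin subunit that binds laminin (ENSMUSG00000001507.16, chr11:95044474-95076801), was at 1074 to 2598 normalised reads in CHR (median 1236) and 3581 to 15770 in SCC (median 5901). The tissues did not overlap, and the log2 difference was 2.07 ± 0.17 (adjusted p = 0.000361). Lamb3, which encodes a chain of the laminin that this integrin binds in the basement membrane, was at a median of 1999 normalised reads in CHR (1095 to 4050) and 6841 in SCC (6113 to 15780), without overlap (log2 difference 2.03 ± 0.19, adjusted p = 0.00047). The hemidesmosome integrin pair Itga6 and Itgb4 rose by 1.45 ± 0.16 (adjusted p = 0.000759) and 1.56 ± 0.13 (adjusted p = 0.000372), and Col17a1, the hemidesmosome collagen, by 1.20 ± 0.21 (adjusted p = 0.0041). Dst, whose products include the hemidesmosome plakin, was not called (log2 difference -0.06 ± 0.20, adjusted p = 0.836), and its lowest carcinoma was that of mouse 9 at 13410, against 26370 to 37280 in the other 5. Itgb8, the 1 member called lower, had a log2 difference of -2.58.

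Ligands of the EGF receptor family changed in both directions while their receptors did not pass the test. Of 13 measured genes of the family, 5 were called higher (38.5%) and 4 lower (30.8%), against 15.0% and 22.7% of all genes. Their median log2 difference was -0.12. Hbegf, the heparin-binding ligand, had the smallest p among genes that rose at least 2-fold. It was at 573.7 to 1185 normalised reads in CHR (median 902.6) and 1664 to 4111 in SCC (median 2696), without overlap, and the log2 difference was 1.57 ± 0.09 (adjusted p = 0.000287). Nrg1, a ligand of ErbB3 and ErbB4 (ENSMUSG00000062991.7, chr8:31814551-32884029), was at a median of 107.8 normalised reads in CHR (71.35 to 183.2) and 931.7 in SCC (263.3 to 1461), a 7.76-fold ratio of means, with a log2 difference of 2.25 ± 0.27 (adjusted p = 0.000947). Epgn, which encodes epigen, was at 307.9 to 956.6 normalised reads in CHR (median 460.9) and 1724 to 4205 in SCC (median 2136), a log2 difference of 2.02 ± 0.19 (adjusted p = 0.00047). Tgfa and Areg rose as well, at 1.21 ± 0.25 (adjusted p = 0.00812) and 1.22 ± 0.21 (adjusted p = 0.0041). All 5 of these ligands were separated between SCC and CHR. The ligands Btc, Egf, Ereg and Nrg4 were called lower, at log2 differences of -1.48, -0.93, -0.79 and -1.68. For Ereg the adjusted p was 0.0512 without mouse 2 and 0.0527 without mouse 7. Egfr itself was at a median of 5897 normalised reads in CHR (5478 to 6499) and 5356 in SCC (4202 to 6783) and overlapped throughout (log2 difference -0.15 ± 0.10, adjusted p = 0.268), as did Erbb2 (log2 difference -0.12 ± 0.14, adjusted p = 0.536) and Erbb3 (log2 difference -0.08 ± 0.20, adjusted p = 0.774).

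Among 20 genes of ERK feedback and ETS targets, 9 were called higher (45.0%) and 1 lower (5.0%), with a median of 0.27. This compares with 15.0% and 22.7% of all genes. Fosl1, an AP-1 subunit induced by ERK, was at 22.85 to 125.0 normalised reads in CHR (median 30.36) and 177.7 to 330.2 in SCC (median 232.8), without overlap (log2 difference 1.50 ± 0.14, adjusted p = 0.000436). Etv4, an ETS factor, was at a median of 200.3 normalised reads in CHR (148.6 to 278.4) and 677.8 in SCC (465.8 to 1398), a log2 difference of 1.54 ± 0.20 (adjusted p = 0.0014), and Myc had a log2 difference of 0.85 ± 0.17 (adjusted p = 0.00742). Egr1, an immediate early gene, was the member called lower (log2 difference -0.39 ± 0.13, adjusted p = 0.0469). Its adjusted p was above 0.05 in 12 alternatives, at 0.0689 to 0.116 without any of mice 2, 3, 7, 9 and 10, at 0.101 with libraries shifted to a common median and at 0.1 after quantile normalisation. Of the feedback inhibitors of the pathway, Dusp6, Spred2 and Spred3 were called higher, with log2 differences of 0.74, 0.55 and 0.95, while Dusp4, Dusp5, Spry1, Spry2, Spry4 and Spred1 were not called, between -0.20 and 0.26.

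Genes of glucose use and the hypoxia response rose in SCC. Of 28 such genes, 21 were called higher (75.0%) and 1 lower (3.6%), against 15.0% and 22.7% of all genes. Their median log2 difference was 0.85, and 16 did not overlap between tissues, against 19.9% of all genes. Slc2a1, the glucose transporter GLUT1, was at 1718 to 5241 normalised reads in CHR (median 2489) and 6945 to 17950 in SCC (median 10490). Every carcinoma was above every CHR library, and the log2 difference was 1.97 ± 0.30 (adjusted p = 0.00248). Vegfa, the angiogenic growth factor, was at a median of 1189 normalised reads in CHR (878.3 to 1857) and 4271 in SCC (2957 to 6569), also without overlap (log2 difference 1.72 ± 0.22, adjusted p = 0.00122). Car9, a carbonic anhydrase widely used as a hypoxia marker, had a log2 difference of 1.20 ± 0.23 (adjusted p = 0.00579), and Ldha, lactate dehydrogenase, of 0.94 ± 0.17 (adjusted p = 0.00521). Aldoa, the aldolase that is also abundant in muscle, was called lower (log2 difference -0.38 ± 0.13, adjusted p = 0.0485). Its adjusted p was above 0.05 when any of mice 2, 3, 7, 8 and 10 was left out, at 0.0512 to 0.125, and was 0.102 with a common median. Skeletal muscle markers were lower in SCC too, and their part in the Aldoa value was not tested. Without mouse 10 the log2 difference of Aldoa was -0.44, and summed muscle markers were lower in SCC in the remaining pairs too. Of 14 endothelial markers, 3 were called higher (21.4%) and 1 lower (7.1%), against 15.0% and 22.7% of all genes. Without mouse 8, 3 were lower. Their summed level was 8452 to 13460 in SCC and 8840 to 13020 in CHR.

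Genes of prostaglandin metabolism were called in both directions. Of 17 genes, 4 were called higher (23.5%) and 6 lower (35.3%), against 15.0% and 22.7% of all genes, with a median of -0.37. Ptgs2, which encodes the inducible cyclooxygenase COX-2 (ENSMUSG00000032487.8, chr1:150100031-150108227), was at 120.9 to 1131 normalised reads in CHR (median 404.3) and 2188 to 3404 in SCC (median 2539). The tissues did not overlap, and the log2 difference was 2.56 ± 0.35 (adjusted p = 0.00159). Ptgs1, the constitutive enzyme, was not called (log2 difference -0.37 ± 0.16, adjusted p = 0.0972). Ptges, the inducible prostaglandin E synthase, was called higher (log2 difference 0.90 ± 0.27, adjusted p = 0.0313), with an adjusted p of 0.053 without mouse 2, 0.0774 without mouse 7 and 0.0871 without mouse 9. Ptger3, a receptor of prostaglandin E2, was at a median of 182.8 normalised reads in CHR (134.5 to 278.8) and 55.41 in SCC (26.87 to 128.9), without overlap (log2 difference -1.06 ± 0.22, adjusted p = 0.00867), and Hpgd, the enzyme that inactivates prostaglandins, fell by 1.24 ± 0.28 (adjusted p = 0.0108).

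**Figure D4:**
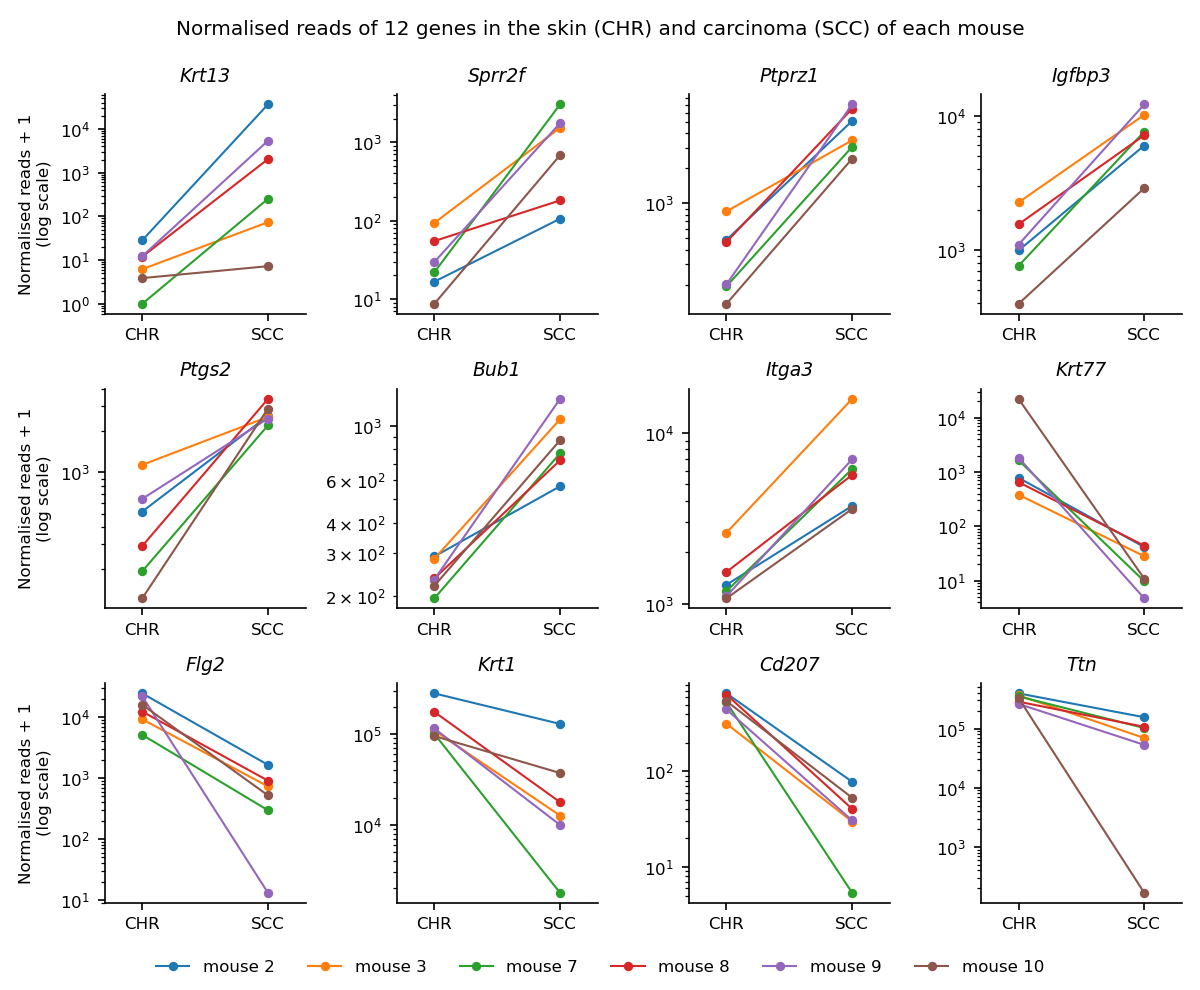
Normalised reads + 1 (log axis) of 12 genes in CHR and SCC, with a line for each of the 6 mice. Ptprz1, Igfbp3, Ptgs2, Bub1 and Itga3 rise and Krt77, Flg2 and Cd207 fall without overlap between tissues, while Krt13 and Krt1 overlap and Ttn falls furthest in mouse 10.

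Secreted proteases included strong rises and falls. Of 23 measured genes, 8 were called higher (34.8%) and 5 lower (21.7%), against 15.0% and 22.7% of all genes. Their median was 0.31, and 3 were lower without mouse 9. Mmp13, an interstitial collagenase, was at 171.8 to 2864 normalised reads in CHR (median 792.4) and 1642 to 18960 in SCC (median 13050). The ratio of means was 11.3 and the log2 difference 3.40 ± 0.63 (adjusted p = 0.00499), although the lowest carcinoma lay within the range of CHR. Mmp9, a gelatinase, was at a median of 632.3 normalised reads in CHR (366.7 to 2865) and 6109 in SCC (1831 to 8032), a log2 difference of 2.60 ± 0.36 (adjusted p = 0.00162), and Mmp10, a stromelysin, rose by 2.24 ± 0.52 (adjusted p = 0.0126). Mmp12, the elastase of macrophages, fell (log2 difference -1.96 ± 0.38, adjusted p = 0.00613), as did Ctsk, a collagen-degrading cathepsin, at a median of 10460 normalised reads in CHR (7919 to 13780) and 3828 in SCC (317.1 to 5676), a log2 difference of -1.99 ± 0.44 (adjusted p = 0.00999). The SCC of mouse 10 was the lowest for Ctsk at 317.1, and the other 5 carcinomas at 2072 to 5676 were also below every CHR library. Mmp3 and Mmp14 were not called (log2 difference 0.65 ± 0.41, adjusted p = 0.244, and log2 difference 0.31 ± 0.25, adjusted p = 0.354).

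Few collagen genes were called, and the 6 pairs differed widely. Of 23 collagen and matrix genes, 2 were called higher (8.7%) and 2 lower (8.7%), against 15.0% and 22.7% of all genes. The median within-mouse difference of the list was 1.63 in mouse 2, 0.62 in mouse 3 and 0.42 in mouse 7. It was 0.06 in mouse 8, -0.97 in mouse 9 and -2.69 in mouse 10. Without mouse 10, 4 were called higher and 2 lower, while 4 were lower without mouse 2 and 1 without mouse 9. Col12a1, a collagen that associates with fibrils, was at 9387 to 35650 normalised reads in CHR (median 24150) and 21540 to 124700 in SCC (median 100500) and rose in 6 of 6 mice (log2 difference 1.78 ± 0.24, adjusted p = 0.0014). Col1a1 was not called (log2 difference 0.71 ± 0.52, adjusted p = 0.31). Dcn, which encodes decorin, was at a median of 18460 normalised reads in CHR (13480 to 26260) and 4241 in SCC (81.51 to 8939), without overlap (log2 difference -2.78 ± 0.74, adjusted p = 0.0214), with an adjusted p of 0.063 without mouse 9. Of 22 genes of activated stroma, 7 were called higher (31.8%) and 2 lower (9.1%), against 15.0% and 22.7% of all genes. In the stroma list 12 were higher without mouse 10, and 1 was lower without mouse 3 or mouse 9. Tnc, the matrix glycoprotein tenascin C, was at 1384 to 20860 normalised reads in CHR (median 10690) and 7761 to 71400 in SCC (median 38320), and the CHR of mouse 10 was its lowest library (log2 difference 1.90 ± 0.36, adjusted p = 0.00561). Inhba, the activin subunit, rose by 1.59 ± 0.37 (adjusted p = 0.0119). The fibroblast marker list, which shares Col1a1, Col1a2, Col3a1, Dcn, Dpt and Lum with the collagen list, moved the same way in mouse 10, with a median difference of -2.91 there and -1.12 to 0.46 in the other mice, and its part in these counts was not tested.

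**Figure D5:**
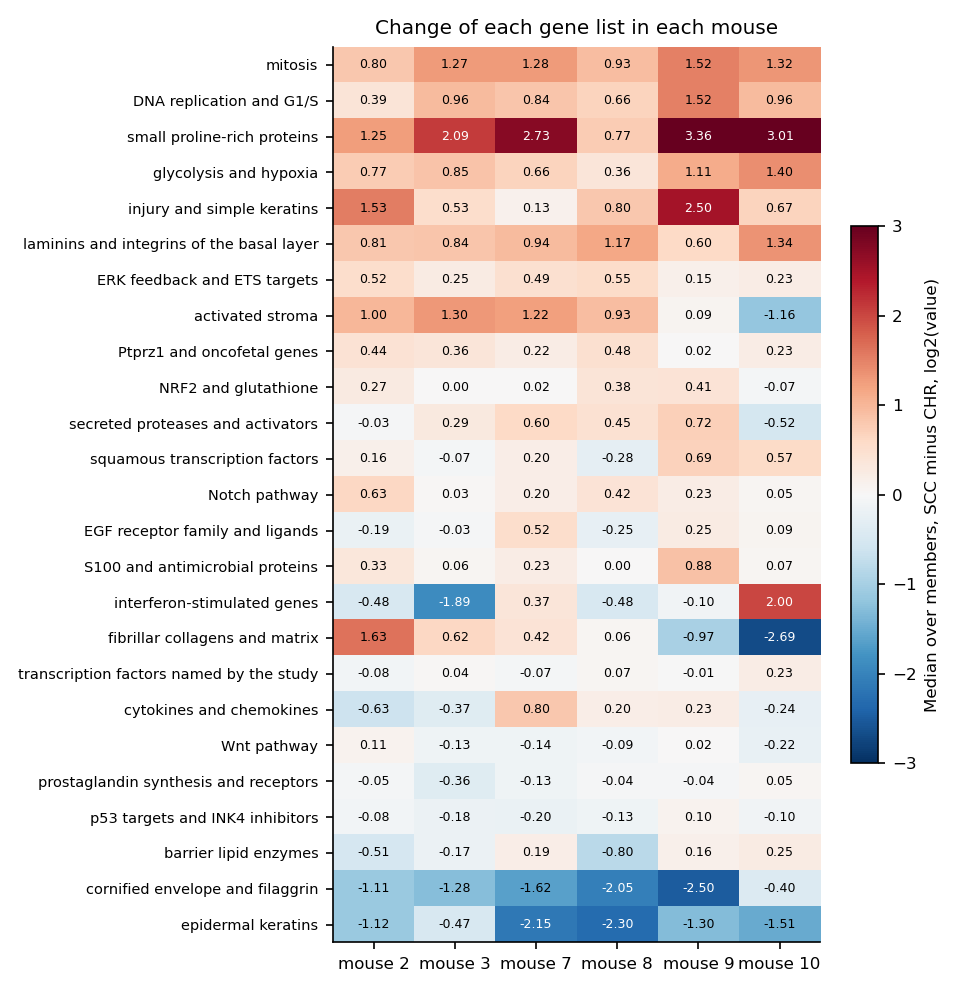
Median within-mouse log2 difference SCC minus CHR (colour) of 25 gene lists (rows) in the 6 mice (columns). Mitosis is above zero in every mouse (0.80 to 1.52) and the cornified envelope list below zero in every mouse (-2.50 to -0.40), whereas interferon-stimulated genes run from -1.89 in mouse 3 to 2.0 in mouse 10 and collagens from -2.69 in mouse 10 to 1.63 in mouse 2.

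Markers of most resident immune cells were lower in SCC. All 10 markers of Langerhans and dendritic cells, 10 of 15 macrophage markers, 9 of 15 T cell markers, 4 of 5 markers of dendritic epidermal T cells and 7 of 11 mast cell markers were called lower, against 22.7% of all genes. Cd207, which encodes the Langerhans cell lectin langerin (ENSMUSG00000034783.7, chr6:83671215-83677857), was at 314.4 to 653.9 normalised reads in CHR (median 534.3) and 4.365 to 76.89 in SCC (median 34.6). The tissues were separated, and the log2 difference was -2.60 ± 0.17 (adjusted p = 0.000295). Cd74, the invariant chain of MHC class II, was at a median of 22430 normalised reads in CHR (9677 to 32620) and 10800 in SCC (3980 to 17970), a log2 difference of -1.08 ± 0.25 (adjusted p = 0.0118). Lyz2, the lysozyme of myeloid cells, fell in 6 of 6 mice (log2 difference -1.76 ± 0.45, adjusted p = 0.0174), with an adjusted p of 0.0557 without mouse 9. Arg1, the arginase that both alternatively activated macrophages and keratinocytes can make, was the 1 macrophage-list gene called higher. It was at 235.2 to 676.7 normalised reads in CHR (median 394.1) and 1527 to 7673 in SCC (median 3045), without overlap (log2 difference 2.82 ± 0.39, adjusted p = 0.00157). Of 11 neutrophil markers, S100a8 and S100a9 were called higher, a share of 18.2% that lay near the 15.0% of all genes. By limma 0 were called lower (1 lower without mouse 8). S100a8 and S100a9 are also made by stressed keratinocytes.

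Mast cell genes moved in opposite directions. Cpa3, the carboxypeptidase of connective tissue mast cells, was at 1932 to 3303 normalised reads in CHR (median 2889) and 232.5 to 848.8 in SCC (median 552.5), without overlap (log2 difference -2.23 ± 0.13, adjusted p = 0.000287). Mcpt4, a chymase of the same cells, was at a median of 1850 normalised reads in CHR (1339 to 2283) and 437.7 in SCC (266.9 to 775.8), a log2 difference of -1.81 ± 0.14 (adjusted p = 0.000312). Mcpt1 and Mcpt2, chymases of mucosal mast cells and close copies of each other, were among the largest rises of all. Mcpt2 was at 0 to 135.3 normalised reads in CHR (median 18.23) and 264.4 to 6346 in SCC (median 1136) and Mcpt1 at a median of 22.63 normalised reads in CHR (11.62 to 93.68) and 715.5 in SCC (133.1 to 6891), and neither overlapped between SCC and CHR. Their log2 differences were 3.93 ± 0.66 (adjusted p = 0.00344) and 3.43 ± 0.69 (adjusted p = 0.0068).

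S100 and antimicrobial genes were called in both directions, 5 higher (23.8%) and 4 lower (19.0%) of 21, with a median of 0.30. The shares of all genes were 15.0% and 22.7%. Without mouse 2, 7 or 9 in turn 3 were higher, and without mouse 3, 7 or 8 in turn 2 were lower. S100a8, the partner of S100a9 in calprotectin, was at 536.7 to 3655 normalised reads in CHR (median 1387) and 1548 to 52410 in SCC (median 9195). It rose in 6 of 6 mice with overlapping groups (log2 difference 2.62 ± 0.56, adjusted p = 0.00903), and S100a9 had a log2 difference of 2.73 ± 0.54 (adjusted p = 0.00661). Defb6, a beta-defensin, was at a median of 4025 normalised reads in CHR (1205 to 11010) and 207.1 in SCC (13.91 to 823.0), below every CHR library in each carcinoma (log2 difference -3.87 ± 0.53, adjusted p = 0.00152). Lcn2, a siderophore-binding lipocalin, was lower in 6 of 6 (log2 difference -1.44 ± 0.24, adjusted p = 0.00323). Of 39 cytokines and chemokines, 6 were called higher (15.4%) and 9 lower (23.1%), shares near the 15.0% and 22.7% of all genes, with a median of 0.09, and 3 were higher without mouse 3, 7 or 8. Tslp, a keratinocyte cytokine that acts on dendritic cells, was at 26.88 to 619.3 normalised reads in CHR (median 80.43) and 183.8 to 3487 in SCC (median 1163), a log2 difference of 2.45 ± 0.60 (adjusted p = 0.0154), and Il24, of the IL-10 family, at a median of 35.5 normalised reads in CHR (5.759 to 279.0) and 504.1 in SCC (96.63 to 1288), a log2 difference of 2.25 ± 0.42 (adjusted p = 0.00502). Ccl20, the chemokine that attracts Langerhans cell precursors, fell by 1.22 ± 0.29 (adjusted p = 0.0148). The inflammatory genes Il1a, Il1b and Il1f6 were not called, at 0.17 ± 0.33 (adjusted p = 0.701), 0.56 ± 0.40 (adjusted p = 0.291) and 0.07 ± 0.65 (adjusted p = 0.949).

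Interferon-stimulated genes gave no call. Of 26 genes, 0 passed the threshold in either direction by limma, 0 were at an unadjusted p under 0.05 and 0 were called by limma-voom, with a lowest adjusted p of 0.118. The pairs differed strongly from each other, since the median within-mouse difference was -1.89 in mouse 3 and 2.0 in mouse 10 and lay between -0.48 and 0.37 in the remaining mice. Ifit1, a translation inhibitor of this group, was at 70.07 to 2509 normalised reads in CHR (median 589.6) and 386.5 to 1427 in SCC (median 647.3), a log2 difference of 0.15 ± 0.62 (adjusted p = 0.873). Without mouse 10, 2 of the 26 genes were called lower.

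Transcription factors of squamous epithelium changed in both directions, 8 higher (30.8%) and 5 lower (19.2%) of 26, with a median of 0.18. The shares of all genes were 15.0% and 22.7%. Pitx1, a homeobox factor, was at 8.639 to 70.78 normalised reads in CHR (median 30.11) and 102.6 to 3185 in SCC (median 436.0). The groups did not overlap, and the log2 difference was 2.70 ± 0.54 (adjusted p = 0.00658). Sox2, a stem cell factor, was at a median of 2.906 normalised reads in CHR (0 to 7.311) and 130.1 in SCC (3.583 to 577.7), rising in 6 of 6 mice from levels near the detection limit (log2 difference 1.95 ± 0.46, adjusted p = 0.0132). Trp63, the master regulator of stratified epithelium, rose by 0.81 ± 0.18 (adjusted p = 0.0102), and Klf5 by 1.10 ± 0.21 (adjusted p = 0.00537). Cebpa, a factor of keratinocyte differentiation, was at 3351 to 4742 normalised reads in CHR (median 3808) and 1010 to 2668 in SCC (median 2270), without overlap (log2 difference -0.99 ± 0.15, adjusted p = 0.00265). Hr, the gene defective in this stock, was lower in 6 of 6 mice (log2 difference -1.10 ± 0.17, adjusted p = 0.00232), and reads from its mutant and intact transcripts cannot be told apart. Of 17 factors named by the study, 2 were called higher (E2f4 and Myc) and 2 lower (Nfatc1 and Nfatc2), with a median of 0.04, and since the study chose them on samples that include these, their counts are not independent evidence. Nfatc1 was at a median of 823.3 normalised reads in CHR (684.2 to 934.7) and 487.4 in SCC (257.0 to 566.4), a log2 difference of -0.85 ± 0.17 (adjusted p = 0.00751). Ets2 and Lef1 were not called (log2 difference 0.04 ± 0.12, adjusted p = 0.838, and log2 difference 0.17 ± 0.10, adjusted p = 0.216).

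Notch and Wnt genes were called in both directions, as were 15.0% (higher) and 22.7% (lower) of all genes. Of 18 Notch pathway genes, 6 were higher and 4 lower, with a median of 0.26. The ligand Jag1 was at 3349 to 4866 normalised reads in CHR (median 4201) and 6047 to 18260 in SCC (median 8339), without overlap (log2 difference 1.12 ± 0.19, adjusted p = 0.00366), whereas the receptor Notch1 was not called (log2 difference -0.07 ± 0.20, adjusted p = 0.812). Lfng, a glycosyltransferase that modifies Notch receptors, fell by 0.58 ± 0.13 (adjusted p = 0.00998). Of 36 Wnt pathway genes, 6 were higher (16.7%) and 10 lower (27.8%), with a median of -0.01, and the lower genes numbered 6 when mouse 10 was left out, 5 for mouse 3, 4 for mouse 7 and 3 for mouse 9. The ligand Wnt5a was at a median of 583.0 normalised reads in CHR (271.6 to 672.4) and 2508 in SCC (373.5 to 3265) and rose in 6 of 6 mice (log2 difference 1.75 ± 0.24, adjusted p = 0.00147). Lgr6, an R-spondin receptor of skin stem cells, was lower in 6 of 6 (log2 difference -1.01 ± 0.19, adjusted p = 0.00579).

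Targets of p53 and INK4 inhibitors gave 2 genes higher (9.1%) and 6 lower (27.3%) of 22, with a median of -0.07. Of all genes, 15.0% were higher and 22.7% lower. The higher genes numbered 1 without mouse 2 and 0 without mouse 3, 8 or 9, and the lower genes 3 without mouse 3 or mouse 7. Trp53 itself was at 320.2 to 395.5 normalised reads in CHR (median 352.4) and 353.3 to 621.5 in SCC (median 537.6) and rose in 5 of 6 mice (log2 difference 0.43 ± 0.12, adjusted p = 0.0276), with an adjusted p of 0.0582 without mouse 10, 0.0647 without mouse 3, 0.0776 without mouse 8 and 0.0652 without mouse 9. The targets Cdkn1a and Mdm2 were not called, at 0.03 ± 0.10 (adjusted p = 0.843) and 0.04 ± 0.11 (adjusted p = 0.786), and Cdkn2a, the INK4a/ARF gene, had a log2 difference of 0.70 ± 0.36 (adjusted p = 0.159). Genes of the NRF2 and glutathione list were called higher in 8 and lower in 4 of 21, with a median of 0.11, and the higher genes numbered 5 without mouse 7 or mouse 10 and 4 without mouse 8 or mouse 9. Gsta4, a glutathione transferase for products of lipid peroxidation, was at a median of 160.0 normalised reads in CHR (97.91 to 235.6) and 4305 in SCC (476.2 to 9179). It did not overlap between tissues and had a 28.1-fold ratio of means (log2 difference 3.72 ± 0.47, adjusted p = 0.00113). Nfe2l2, which encodes NRF2, rose by 0.77 ± 0.20 (adjusted p = 0.0211), with an adjusted p of 0.0548 without mouse 8 and 0.0544 without mouse 9.

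In the Ptprz1 and oncofetal list, 5 of 15 were called higher (33.3%) and 2 lower (13.3%), against 15.0% and 22.7% of all genes. The median was 0.34, and 3 were higher without mouse 3 or mouse 8. Ptprz1, a receptor tyrosine phosphatase better known from the nervous system (ENSMUSG00000068748.7, chr6:22875502-23052916), was at 135.3 to 850.4 normalised reads in CHR (median 331.5) and 2425 to 7116 in SCC (median 4311). Every carcinoma exceeded every CHR library, the ratio of means was 12 and the log2 difference was 3.45 ± 0.30 (adjusted p = 0.000387). Its ligand Ptn was not called (log2 difference -0.25 ± 0.18, adjusted p = 0.289). Igf2bp2, an RNA-binding protein of fetal tissue, was at a median of 257.7 normalised reads in CHR (151.5 to 311.3) and 738.3 in SCC (388.6 to 1417), without overlap (log2 difference 1.44 ± 0.20, adjusted p = 0.00174), and the related Igf2bp3 was called lower, at -0.66.

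Several of the largest changes lay outside these lists. Tmprss11bnl, of the transmembrane serine protease family, was at 29.76 to 866.0 normalised reads in CHR (median 488.2) and 1796 to 16540 in SCC (median 8386), a log2 difference of 4.07 ± 0.56 (adjusted p = 0.00163), and Pthlh, the parathyroid hormone-like hormone, at a median of 27.39 normalised reads in CHR (22.48 to 45.11) and 923.2 in SCC (129.0 to 1531), a log2 difference of 3.05 ± 0.44 (adjusted p = 0.00196). Sh2d5, an adaptor with an SH2 domain, was at a median of 76.23 normalised reads in CHR (50.87 to 276.9) and 1705 in SCC (712.8 to 2761), a log2 difference of 3.31 ± 0.21 (adjusted p = 0.000287). None of these 3 genes overlapped between tissues. Stra6, the receptor of retinol-binding protein, was at 1.828 to 18.59 normalised reads in CHR (median 10.15) and 17.91 to 655.9 in SCC (median 478.3), where 5 carcinomas lay between 265.0 and 655.9 and that of mouse 10, the lowest, still exceeded its own CHR library (log2 difference 2.67 ± 0.43, adjusted p = 0.00301). The genes with the smallest p and a rise of at least 2-fold were Hbegf, Sh2d5, Pax9, Igfbp3, E2f7 and Apln. Igfbp3, which binds insulin-like growth factors (ENSMUSG00000020427.11, chr11:7206086-7213923), was at a median of 1041 normalised reads in CHR (395.5 to 2257) and 7381 in SCC (2887 to 12140), a log2 difference of 2.67 ± 0.19 (adjusted p = 0.000296), Pax9, a paired box factor, at a median of 10.78 normalised reads in CHR (3.84 to 37.47) and 290.4 in SCC (147.8 to 436.4), a log2 difference of 2.34 ± 0.15 (adjusted p = 0.000295), and Apln, the ligand of the apelin receptor, at a median of 50.7 normalised reads in CHR (30.3 to 91.99) and 388.6 in SCC (332.9 to 613.6), a log2 difference of 2.02 ± 0.15 (adjusted p = 0.000312). All were separated between tissues.

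Ranked by the mean within-mouse difference of log2(normalised reads + 10), the largest falls were Krt79, Krt77, Far2, Cfd, Cyp2e1, Serpina3j, Elovl3, Myh4, Awat1, Ces4a, Fa2h and Flg2. Cfd, the adipocyte serine protease adipsin, was at 1899 to 7074 normalised reads in CHR (median 5764) and 0 to 927.0 in SCC (median 189.7), a log2 difference of -4.73 ± 0.51 (adjusted p = 0.000689), and Cyp2e1, a cytochrome P450 of fat and liver, at a median of 851.7 normalised reads in CHR (485.1 to 2181) and 3.663 in SCC (0 to 73.88), a log2 difference of -4.00 ± 0.21 (adjusted p = 0.000287). Both were separated between tissues, and Cfd is a member of the adipocyte marker list. Myh4, the fast myosin heavy chain, was at 3341 to 54070 normalised reads in CHR (median 34370) and 1.791 to 5642 in SCC (median 868.2), a log2 difference of -4.76 ± 1.04 (adjusted p = 0.00963) and is a member of the muscle marker list. Falls with a small p beside Pla2g2f and Cyp2e1 were those of Atp6v1c2, a subunit of the vacuolar proton pump (log2 difference -2.95 ± 0.16, adjusted p = 0.000287), Atp10b, a lipid flippase (log2 difference -2.75 ± 0.16, adjusted p = 0.000287), Anxa9 (log2 difference -2.37 ± 0.13, adjusted p = 0.000287) and Myoc (log2 difference -2.19 ± 0.13, adjusted p = 0.000287). The within-mouse difference of log2(normalised reads + 10) had its largest SD over the mice for Chi3l4, Myh4, Ttn, Krt13, Xirp2 and Krt79. This ranking took genes with a mean of at least 1000 normalised reads in SCC, and spread among CHR libraries enters it too. Chi3l4, a chitinase-like protein, ran from 22.26 to 15550 normalised reads in SCC and was not called (log2 difference 0.47 ± 1.27, adjusted p = 0.794). Ttn had a log2 difference of -3.27 ± 1.15 (adjusted p = 0.0552), and without mouse 10 of -1.84 with an adjusted p of 0.000741.

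Few of these differences also separated SCC from papilloma. Against PAP, in a fit of all 18 libraries, 1432 genes (9.86%) were called, 1272 higher and 160 lower in SCC, and without mouse 7 or mouse 8 limma called 0 genes against PAP (lowest adjusted p of any gene 0.0533 and 0.0781). The count was 481 without mouse 3, 813 without the mouse as a block, 1068 by limma-voom and 2951 with array quality weights. In the fit of all mice, 84 genes (0.578% of 14521) were called in both comparisons with the same sign, 62 higher and 22 lower. Both comparisons share the SCC libraries. Summed markers of muscle, fibroblasts and macrophages were lower in PAP than in SCC. Medians in PAP and SCC were 826.5 and 113000 for muscle, 59570 and 247300 for fibroblasts and 13540 and 27590 for macrophages. Keratinocyte markers went the other way, with medians of 917600 in PAP and 608100 in SCC. The part of this difference in composition in the calls against PAP was not tested. The 84 calls depended on which mice were included, since leaving out mouse 7 or mouse 8 left 0, mouse 3 left 23, mouse 9 left 81 and mouse 2 left 95, and leaving out mouse 10 gave 285. At an unadjusted p under 0.05 the SCC against PAP comparison had 2453 genes without mouse 7 and 2595 without mouse 8. The adjusted p values against PAP that follow are from all mice, and each of these calls was lost without mouse 7 or mouse 8. Igfbp3, at a mean of 2775 normalised reads in PAP, differed by 1.46 ± 0.25 (adjusted p = 0.00996). Grem1, a secreted antagonist of bone morphogenetic proteins, was at 427.5 to 1128 normalised reads in CHR (median 487.5) and 620.7 to 4457 in SCC (median 3874), against a mean of 886.8 in PAP. It differed from CHR by 2.13 ± 0.31 (adjusted p = 0.00199) and from PAP by 2.0 ± 0.35 (adjusted p = 0.00996). A2m, a protease inhibitor, was at a median of 10.17 normalised reads in CHR (0.9774 to 27.77) and 277.6 in SCC (0 to 862.2) and at a mean of 4.453 in PAP, with a log2 difference from PAP of 2.46 ± 0.46 (adjusted p = 0.0104). Among the genes lower in SCC than in both tissues, Ephb6, a receptor of ephrins, differed by -1.12 ± 0.20 (adjusted p = 0.00417) from CHR and -1.08 ± 0.23 (adjusted p = 0.0151) from PAP. Several genes that separated SCC from CHR were not called against PAP. Ptprz1 was at a PAP mean of 4321 (SCC minus PAP log2 difference 0.22 ± 0.46, adjusted p = 0.815), Nrg1 at 902.2 (SCC minus PAP log2 difference 0.11 ± 0.46, adjusted p = 0.913) and Itga3 at 6024 (SCC minus PAP log2 difference 0.06 ± 0.24, adjusted p = 0.915).

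The 6 pairs differed in the extent of change. On normalised reads with 10 added, the SCC of mouse 8 differed from its own CHR by more than 2-fold for 2356 genes, that of mouse 7 for 2606, mouse 2 for 2754, mouse 3 for 3560, mouse 10 for 4373 and mouse 9 for 4772. In every pair more genes fell than rose, with 662 higher and 1694 lower in mouse 8 and 1778 higher and 2994 lower in mouse 9. Mitosis and the cornified envelope moved in 1 direction in all 6 pairs. The median of the SPRR list was above zero in every pair too, from 0.77 in mouse 8 to 3.36 in mouse 9, and so was that of the laminin and integrin list, from 0.60 in mouse 9 to 1.34 in mouse 10. Glycolysis and hypoxia genes ranged from 0.36 in mouse 8 to 1.40 in mouse 10.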

How the data were processed

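Total RNA was extracted from SCC, PAP and CHR of 6 mice and sequenced on the Illumina HiSeq. Per the labels and the study's methods, the authors aligned reads with MOSAIK to mm10, counted them per gene with HTSeq and applied the variance-stabilising transformation of DESeq2. The deposited values are a score on the linear scale of that transformation, rounded to whole numbers, and the lowest value, 39.12 before rounding, stands for 0 reads. Their methods also state a scaling of batches, which the submitters do not describe per library, and strandedness is not given in the sources used here. The 21 rows without a gene symbol, at most 0.2406% of the reads of a library, were left out.

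The transformation was inverted to reads per library. Whole reads were recovered exactly for 99.2% of values, and on simulated data the size factors were recovered within 0.01%. Depth was 15420000 to 21010000 reads over the 18 libraries. No pair of libraries was a duplicate, since at most 2.23% of values were equal over 153 pairs.

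The comparison SCC against CHR was fitted with limma 3.58.1 in R 4.3.3 on log2(deposited value), with mouse as a block and Benjamini-Hochberg adjustment over 14521 genes at 0.05. The same fit on all 18 libraries gave SCC against PAP. Libraries of 1 number come from the same animal and were paired for that reason. The correlation of their deviations from the tissue means was 0.066 in the median (-0.088 to 0.506 over 6 pairs), against 0.005 over 30 other pairings. Each tissue of a mouse is 1 library, so p-values measure the spread among 6 littermates. On data simulated for SCC against CHR over 14521 genes, 54% of genes changed 2-fold and 83% of those changed 4-fold were called, and 5.52% of calls were false. Only 200 genes, all above a floor of mean reads, were changed in the simulation, and it held no mouse effect. In the data 5479 genes were called, so these shares do not give the power of the real comparison.

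Symbols were matched to GENCODE for 14447 genes (99.5%), 596 of them through RefSeq synonyms. Gene lists were described by counts and medians without a test of the list. The gene lists, the comparison and the tests were chosen with earlier results of these data known. Named genes were the 12 largest rises and falls (adjusted p under 0.05, 6 of 6 mice, a mean of at least 200 normalised reads in the higher tissue), the 6 with the smallest p in each direction at 2-fold or more, the largest rise and fall and the most abundant member of each list, and the 6 in each direction that also differed most from PAP. Also named were the 6 whose within-mouse difference had the largest SD over the 6 mice (a mean of at least 1000 normalised reads in SCC). Genes described beyond this rule were chosen after their values were seen. Some genes are not reported here. Alternatives were fits without the block, on recovered reads, with limma-voom, with filters on low values, 2 other scalings, array weights, all 18 libraries and each mouse left out.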

Additional observations from a re-analysis of the deposited data

Results flagged for a closer look

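Of 362 groups of 6 libraries examined for a lone extreme value by Dixon's criterion, 31 (8.6%) held 1. The groups are not independent, since list sums contain named genes, and some genes were named for their spread. The rate of about 1 in 20 for independent, unselected groups is therefore no reference for this share. Mouse 10 was the extreme library in 15 of the 19 SCC groups and 9 of the 12 CHR groups.

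In the SCC of mouse 10 lone low values were found for 10 named genes, among them muscle and matrix genes. Ttn was at 166.6 normalised reads (others 52890 to 154900), Xirp2 at 4.479 (1935 to 10640), Des at 21.5 (1578 to 3763), Car3 at 1.791 (1263 to 3738), Dcn at 81.51 (2601 to 8939), Ctsk at 317.1 (2072 to 5676), Grem1 at 620.7 (2614 to 4457), Col8a1 at 713.0 (3264 to 6244), Wisp1 at 311.7 (1748 to 3226) and Stra6 at 17.91 (265.0 to 655.9). The summed skeletal muscle markers were at 460.4 (76510 to 203700) and the smooth muscle and pericyte markers at 5125 (14530 to 20290). The median log2 value of this library was 8.945 (9.031 to 9.079). High values were those of Hbb-bs, a globin gene, at 27630 (1352 to 3045) and of the summed red blood cell markers at 35490 (1759 to 4055).

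In the CHR of mouse 10, Krt77 was high at 22320 (381.0 to 1841), Hbb-bs at 12140 (1687 to 3222) and the red blood cell markers at 15990 (2187 to 4356). Low values were Cfd at 1899 (5407 to 7074), Car3 at 8767 (16150 to 20450), Tnc at 1384 (7946 to 20860), Igj, the immunoglobulin joining chain, at 364.8 (4309 to 8399), the summed adipocyte markers at 33440 (50460 to 59780) and the B and plasma cell markers at 387.8 (4446 to 8725).

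In other mice, the SCC of mouse 7 was low for Krt6a at 45130 (101300 to 158000) and for the summed injury and simple keratins at 116100 (259100 to 397400). The SCC of mouse 9 was high for Rrm1 at 5154 (2904 to 3301) and low for Dst at 13410 (26370 to 37280). The CHR of mouse 3 was high for Myc at 825.4 (624.0 to 679.6) and for the summed laminins and integrins at 165400 (105300 to 121200), and the CHR of mouse 7 was high for 1500015O10Rik at 56.92 (10.56 to 21.7).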

How the results depend on the processing

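No call of a named gene and no called list member reversed under any alternative run, and 102 of the 118 called among 135 named genes kept their call in all of them. The number of genes that separated SCC from CHR was 5479 with the replicate block, 5737 without it, 5122 on log2 of reads + 1 with the block and 5429 by limma-voom. Quantile normalisation gave 3469 genes called higher in place of 2182. Leaving out each mouse in turn gave 4244 to 4891 genes called, 1578 to 1851 higher and 2666 to 3040 lower. The 84 genes that also differed from PAP with the same sign were the least stable count, with 40 without the replicate block, 51 among genes with a mean of at least 100 reads, 387 with array quality weights and 0 to 285 when a mouse was left out. The cause was not tested. The median number of genes over 2-fold per pair was recomputed with 1 read in place of 10 added, an alternative chosen after seeing the data. At the depth of 15420000 reads or more, genes with few reads were limited by counting error and by the compressed deposited scale.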
